A study of Mus musculus with 4 samples.

Results

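A group of 8 genes known as markers of meningeal fibroblasts were followed on 4 arrays of ventral midbrain RNA: Foxc1, Foxc2, Serping1, Aebp1, Ptgds, Islr, Itih2 and Ranbp3l. The genes were chosen by name with the RKO and WT intensities of these same arrays known, and each was read from the single probe set annotated to its symbol alone, so 8 genes of 19938 with such a probe set are described. The arrays held RNA from male mice on a C57BL/6J background, 2 arrays of wild-type mice (WT) and 2 of Rev-erba knock-out mice (RKO), which lack the circadian nuclear receptor REV-ERBα encoded by Nr1d1. All mice were 10 to 15 weeks old, had been entrained for more than 10 days to 12 h of light a day, and were killed after 2 days in constant darkness. The labels call the replicates biological. The sources used here do not give the number of mice behind an array, the hour of collection or the deleted part of Nr1d1.

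The meninges are the sheets of connective tissue around the brain. Their inner layers, the arachnoid and the pia, are built by fibroblasts that follow larger vessels into the tissue, secrete matrix and retinoic acid, carry solute transporters and need the forkhead factor FOXC1 to form. The 8 genes fall into transcription control (Foxc1, Foxc2), nuclear export (Ranbp3l), surface and matrix proteins (Islr, Aebp1, Itih2) and proteins secreted into tissue fluid and cerebrospinal fluid (Serping1, Ptgds). Several are not confined to fibroblasts: Ptgds is also made by oligodendrocytes and the choroid plexus, and Serping1 by the liver and other cells.

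Nr1d1 read 2897 and 3099 on the WT arrays against 1259 and 1229.7 on the RKO arrays (log2 difference -1.27). The direction was that of the labels as far as its 1 probe set can tell. Signal remained in RKO, so a lower reading was seen and not the absence of the transcript. The midbrain label was checked on 9 dopamine neuron markers, all above the filter on dim probe sets (an intensity of 167, the 40th percentile of all probe sets), among them Th at 2168 and 2248 in WT and 3620.0 and 3664 in RKO. Median intensities over all probe sets ran from 236 to 240.1 on the 4 arrays. Over the 13587 genes above the filter the median was 559 on both WT arrays and on RKO replicate 2, and 539.8 on RKO replicate 1, which stood slightly apart. The fit across all these genes (limma, Benjamini-Hochberg adjusted p under 0.05) called 131 lower in RKO (0.964%) and 87 higher (0.64%).

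All 8 markers were lower in RKO, and for each of them both RKO arrays lay below both WT arrays. Over all 19938 genes 19.2% were separated in this way and direction, and 24.6% of those above the filter. The RKO means stood at 54.5% to 83.7% of the WT means. For all 8 the step from the lowest WT to the highest RKO array was larger than the gap between replicates of either group, which ran from 0.0031 to 0.12 (log2) in WT and from 0.0029 to 0.12 in RKO. The share of all genes that meet this stricter measure was not computed, so nothing is read from it. Of the 7 markers above the filter 6 were called lower, beside 0.964% of all tested genes. Both the markers and this contrast were known when the list was made, so the calls are given as a description and nothing is read from them. The median difference of the 7 was -0.37 on the log2 scale, against -0.01 for all tested genes. These are whole-tissue values, in which fewer fibroblasts and less RNA per fibroblast cannot be told apart.

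**Figure D1:**
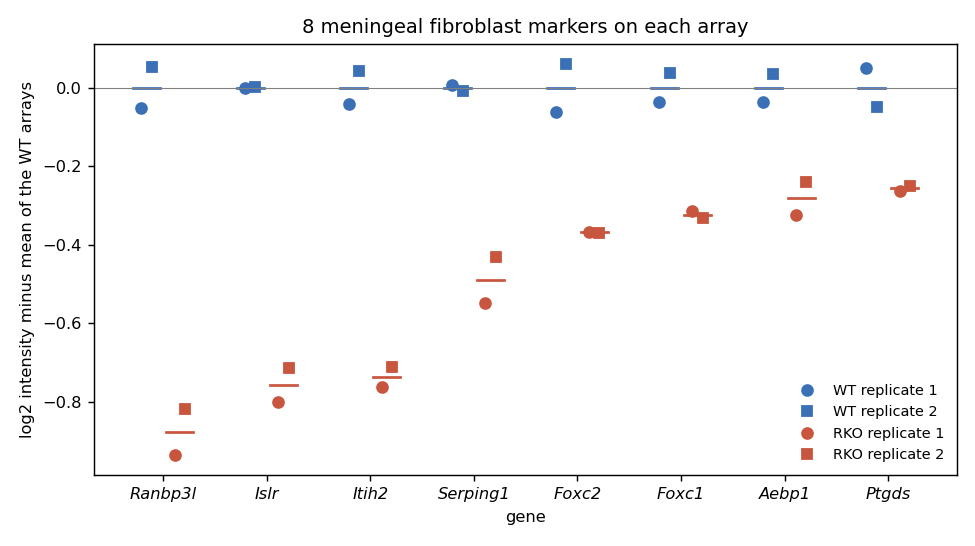
Log2 intensity of each marker on each array, minus the mean of the 2 WT arrays of that gene. Points are single arrays and horizontal bars are group means; for all 8 genes both RKO arrays lie below both WT arrays, from Ranbp3l with the largest difference (-0.88) to Ptgds with the smallest (-0.26).

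Foxc1 encodes a forkhead transcription factor of the mesenchyme that forms the meninges, and the loss of it disturbs meningeal development. Its signal was 213 and 224 on the WT arrays against 175 and 173 on the RKO arrays, a difference of -0.32 on the log2 scale (SE 0.0569, n = 2 per group). Foxc2 encodes its closest relative, which also acts in vessels and lymphatics. It measured 246 and 268 in WT and 199 in both RKO arrays (log2 difference -0.37, SE 0.0606). The pair thus differed from WT by almost the same step, with RKO arrays that were nearly equal (gaps of 0.016 and 0.0029, log2) and WT replicate 2 above WT replicate 1 in both. The signals of both genes are close to the filter: the mean of Foxc1 lay 1.17 times above it and that of Foxc2 1.36 times, so the size of these differences is uncertain.

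Ranbp3l encodes a Ran-binding protein that exports BMP-activated SMAD proteins from the nucleus. It stood at 188 and 202 in WT and at 102 and 110.4 in RKO, the largest difference of the 8 (log2 -0.88, SE 0.0718, a fall to 54.5% of WT). Its mean lay below the filter (0.861 times its intensity), with both WT arrays above 167 and both RKO arrays below, so it entered no fit but the one without a filter, where its SE comes from. The fold is uncertain for the same reason.

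Islr, also called meflin, is a membrane-anchored protein of immunoglobulin and leucine-rich repeats found on mesenchymal stromal cells. Its WT arrays were almost equal at 621 and 622, and the RKO arrays measured 357 and 379 (log2 difference -0.76, SE 0.0577, 1.69-fold lower). In the order of all tested genes from the most negative difference, Islr was number 6. Itih2 encodes a heavy chain of inter-α-trypsin inhibitor, which is transferred onto hyaluronan and stabilises it. Its signal was 276 and 293 in WT against 168 and 174 in RKO (log2 difference -0.74, SE 0.0584), number 7 in that order, and its RKO values sat just above the filter. Aebp1, which encodes a collagen-binding secreted protein with a carboxypeptidase-like domain, differed less: 409 and 429.8 in WT against 335 and 355 in RKO (log2 difference -0.28, SE 0.0595).

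Serping1 encodes the C1 inhibitor, the serpin that blocks the first proteases of the complement and contact pathways. It measured 472 and 467 in WT and 321 and 348 in RKO (log2 difference -0.49, SE 0.0600), with the wider gap between the RKO arrays. Ptgds encodes lipocalin-type prostaglandin D synthase, which makes prostaglandin D2 and is one of the main proteins of cerebrospinal fluid. It was 6951 and 6496 in WT against 5605 and 5648 in RKO (log2 difference -0.26, SE 0.0585). Its arrays did not overlap, but it was the 1 marker above the filter that was not called with all 4 arrays and the settings used throughout. It was called without WT replicate 2 (-0.31), with the filter at the 60th percentile, a pseudocount of 16, median centring or an intensity trend, and with replicate numbers crossed. Its signal lay 36.9 times above the filter, unlike those of Foxc1, Foxc2, Itih2 and Ranbp3l.

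**Figure D2:**
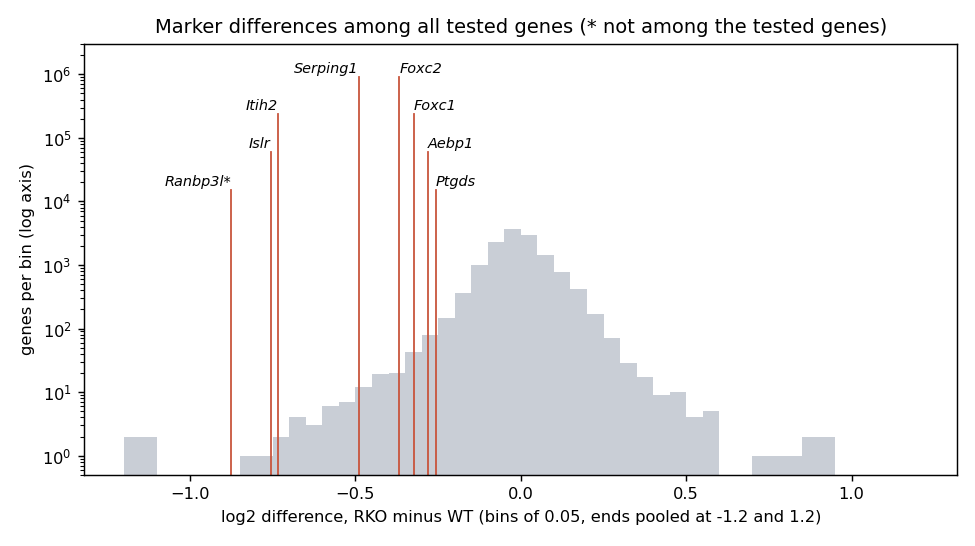
Number of tested genes in bins of the log2 difference between RKO and WT (log axis, 13587 genes), with a line at each marker; Ranbp3l is drawn although it lies below the filter. The 7 tested markers range from -0.76 (Islr) to -0.26 (Ptgds), against a median of -0.01 over all tested genes.

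With 2 arrays per group the size of a difference depends on each array. That it stays below 0 when 1 array is left out follows from the groups not overlapping. The values ran from -0.43 to -0.55 for Serping1, from -0.71 to -0.80 for Islr, from -0.29 to -0.36 for Foxc1 and from -0.21 to -0.31 for Ptgds. The calls depended on the arrays as well. Of the 7 tested markers only Serping1, Islr and Itih2 were called whichever array was left out. Foxc1 lost its call without WT replicate 2 (-0.29), RKO replicate 1 (-0.33) or RKO replicate 2 (-0.32), Foxc2 without RKO replicate 1 (-0.37) or RKO replicate 2 (-0.37), and Aebp1 without any one of the arrays (-0.24 to -0.32). With no filter 3 of 8 were called, Islr, Itih2 and Ranbp3l, beside 0.115% of all genes called lower in that fit.

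**Figure D3:**
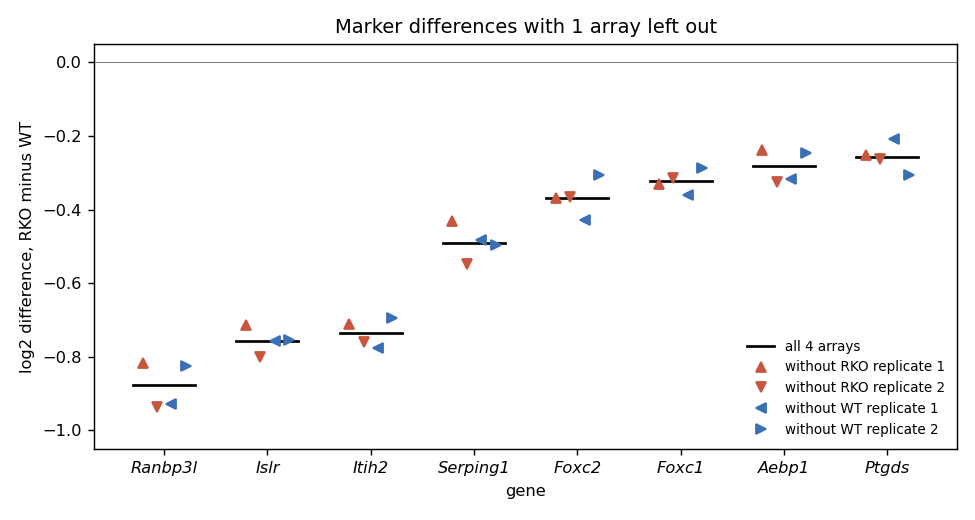
Log2 difference of each marker between RKO and WT with all 4 arrays (bars) and with 1 array left out (triangles; the lone array of a group then stands for it). The values run from -0.94 for Ranbp3l without RKO replicate 2 to -0.21 for Ptgds without WT replicate 1.

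The genome positions and promoters of the 8 genes were not used in choosing them. In the RefSeq annotation of GRCm38.p6, 3 lie on chromosome 2 far apart from each other (Itih2 at 10094591 to 10130683, Ptgds at 25466709 to 25470110 and Serping1 at 84765360 to 84775444), and the others on 5 chromosomes (Foxc2 on 8, Islr on 9, Aebp1 on 11, Foxc1 on 13 and Ranbp3l on 15). Of the 16 protein-coding genes next to them, 15 were above the filter and 1 was called, Stra6 beside Islr. Stra6 encodes the cell-surface receptor through which cells take up retinol from its plasma carrier. It fell from 384 and 406 to 283 and 285 (log2 difference -0.48, SE 0.0573, adjusted p = 0.00155 in limma), while Islr2, on the other side of Islr, differed by -0.07 and Foxf2 beside Foxc1 by -0.11, neither of them called. The other tested neighbours lay between -0.18 and 0.04. The neighbours were looked up after the marker values had been seen, by position alone. Stra6 kept its call whichever array was left out and lost it with no filter.

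The RefSeq promoter table held 6 of the 8 genes. For 3 of them, Foxc1, Itih2 and Ranbp3l, the windows of 250 bases before the start are shown, as examples that differ in make-up. A link between make-up and the size of the difference was not tested. Capitals mark each CpG.
Foxc1: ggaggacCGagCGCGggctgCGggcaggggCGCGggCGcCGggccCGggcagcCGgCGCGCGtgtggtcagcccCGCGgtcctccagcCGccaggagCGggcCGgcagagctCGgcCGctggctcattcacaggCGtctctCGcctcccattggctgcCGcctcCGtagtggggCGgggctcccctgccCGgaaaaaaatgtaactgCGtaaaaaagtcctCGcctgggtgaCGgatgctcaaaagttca
Itih2: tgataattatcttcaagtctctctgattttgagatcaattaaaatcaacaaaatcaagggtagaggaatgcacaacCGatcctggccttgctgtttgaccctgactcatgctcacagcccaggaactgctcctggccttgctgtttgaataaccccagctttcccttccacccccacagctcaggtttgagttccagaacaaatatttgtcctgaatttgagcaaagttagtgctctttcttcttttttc
Ranbp3l: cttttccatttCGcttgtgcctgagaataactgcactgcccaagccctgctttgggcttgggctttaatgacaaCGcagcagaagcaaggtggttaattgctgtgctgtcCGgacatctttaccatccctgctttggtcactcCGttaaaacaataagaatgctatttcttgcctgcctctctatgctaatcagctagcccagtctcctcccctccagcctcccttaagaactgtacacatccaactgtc
They lie at chr13:31806396-31806645 on the plus strand, chr2:10130684-10130933 on the minus strand and chr15:8967699-8967948 on the plus strand (GRCm38.p6), outside the annotated genes themselves. The window of Foxc1 held 29 CpGs at 70.8% G and C, that of Itih2 1 CpG at 43.2% and that of Ranbp3l 4 CpGs at 48.8%, where the median of all 32851 windows was 6 CpGs and 52.4%. Aebp1 had 11 CpGs, Ptgds 2 and Islr 1, so the 6 windows were CpG-rich and CpG-poor alike. The windows of Ptgds and Islr lie inside the annotated genes, so the start they precede is not the outermost of the gene. Searched on both strands, the half-site of REV-ERB and ROR receptors, AGGTCA, was in 0 of the 6 windows and in 14.0% of all windows, the forkhead core GTAAACA in 0 and 3.17%, the TATA box TATAAA in 0 and 12.4%, and the GC box GGGCGG in 1 (Foxc1) and 32.7%. These letters are not in these windows, which says nothing of sites elsewhere.

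Other genes of meningeal fibroblasts were read from 3 lists of matrix, of transport and of signalling genes, 45 tested genes in all. Of these 18 were called lower in limma and 0 higher (median log2 difference -0.19), beside 0.964% and 0.64% of all tested genes. The lists were written with earlier results of these arrays known. The transport and junction list was the most uniform of the 3: 10 of 12 tested genes fell, 0 rose, and the median was -0.42. Both RKO arrays lay below both WT arrays for all 12, beside 24.6% of all tested genes. Slc13a4, a sulfate transporter, fell 1.59-fold (log2 difference -0.66, SE 0.0677, adjusted p = 6.98e-04), from 497 and 549 to 317 and 343. The amino acid transporter Slc6a20a fell by 0.64, the gap junction protein Gjb2 by 0.58 and the GABA transporter Slc6a13 by 0.49. Without RKO replicate 1 this list kept 4 calls and without RKO replicate 2 it had 6. Slc13a4, Slc6a20a, Gjb2 and Slc6a13 were called in both cases.

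The matrix list did not move as one. Of 21 tested genes 6 fell, 0 rose and 15 were not called, and the median was -0.00468. Both RKO arrays lay below both WT arrays for 8 of the 21 and above them for 7. The largest falls were those of the proteoglycan Ogn (log2 difference -1.11, SE 0.0664), fibronectin Fn1 (-0.54), the calcification inhibitor Mgp (-0.50) and the matrix glycoprotein Fbln1 (-0.41). Fmod, another proteoglycan, stood at -0.33 without a call (477 and 474 in WT against 419.9 and 340.1 in RKO). The 10 collagen genes of the list, singled out after their values were seen, gave 0 calls in limma (2 at an unadjusted p under 0.05) and lay between -0.07 and 0.15. Col1a1, a chain of type I collagen and a widely used fibroblast marker, measured 402 and 419 in WT against 457 and 444 in RKO, so its RKO arrays lay above its WT arrays, opposite to the 8 markers. Col1a2, the partner chain, measured 383 and 411 in WT against 416 in both RKO arrays. Of the 6 defining fibroblast genes (Col1a1, Col1a2, Dcn, Lum, Igf2 and Slc6a13), Dcn (-0.41) and Slc6a13 fell, Igf2 (-0.23), Col1a1 (0.13) and Col1a2 (0.07) were not called, and Lum lay below the filter at 72.7 to 94.8. Their summed intensity was 3567 and 3648 in WT against 3025 and 3062 in RKO. The largest part of this sum was Dcn (1213 and 1178 in WT, 879 and 922 in RKO). All 6 genes are also in the 3 lists, so they are no separate check of them. The 8 markers and these defining genes therefore did not all differ in 1 direction. Fbln1 lost its call without RKO replicate 2 (-0.36). Without RKO replicate 1 Dcn lost its call (-0.37) and the matrix median was -0.09, and with a filter at the 60th percentile it was -0.33.

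Among 12 tested signals and transcription factors of the meninges 2 fell and 10 were not called (median -0.16). Both RKO arrays lay below both WT arrays for 10 of the 12 and above them for 1. Aldh1a2, the retinaldehyde dehydrogenase that makes retinoic acid in meninges, fell from 324 and 293 to 225 and 212 (log2 difference -0.50, SE 0.0660, adjusted p = 0.00283), and the transcription factor Osr1 fell by 0.37. Without RKO replicate 2 neither Aldh1a2 (-0.45) nor Osr1 (-0.32) was called.

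**Figure D4:**
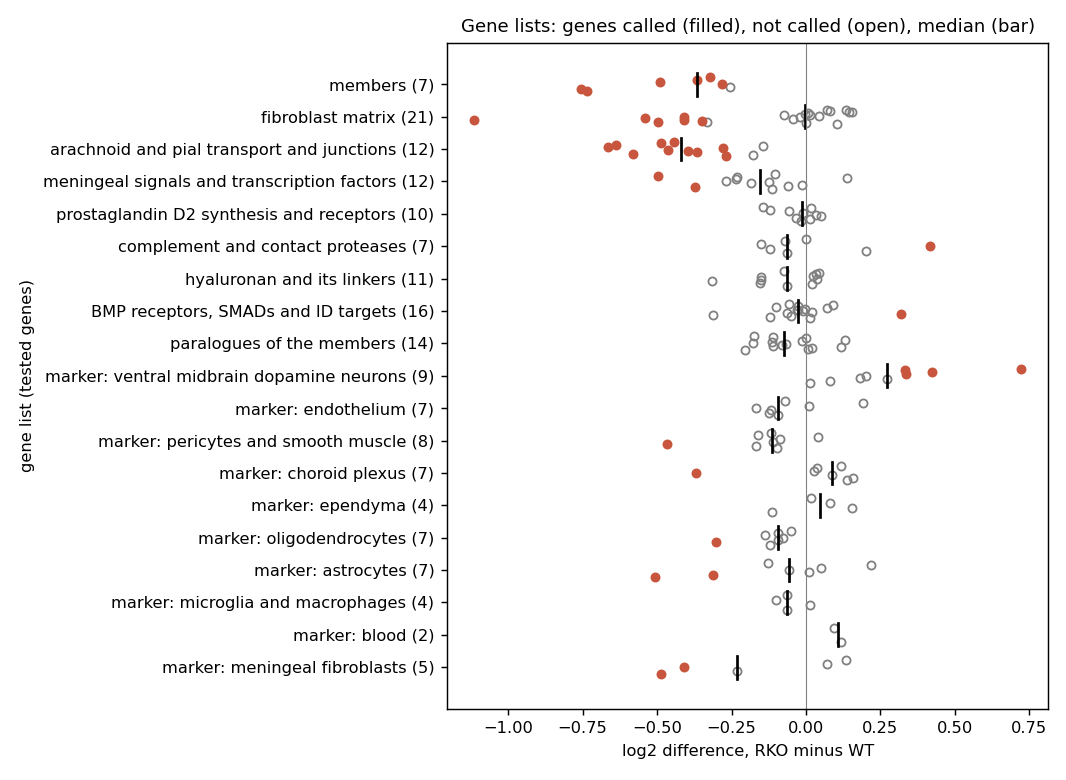
Log2 difference between RKO and WT for every tested gene of the 8 markers (top row) and of each gene list, with the number of tested genes in brackets; filled points passed an adjusted p under 0.05 in limma and bars are medians. The transport and junction list lies wholly below 0 (median -0.42), while the matrix list has 6 called genes below 0 and a median near 0.

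Relatives and pathway partners of the markers were not called with them, apart from 2 genes that rose. Limma called 0 of the 14 tested paralogues (3 had an unadjusted p under 0.05), and their median was -0.07. Of the 14, 10 lay below 0 and 4 above. Both RKO arrays lay below both WT arrays for 8, beside 24.6% of all tested genes, and above them for 1. Foxf1 stood at -0.18, Itih3 at -0.11, Itih5, which lies beside Itih2, at -0.18, Cpxm1 at -0.08 and Ranbp3 at 0.02. Of the serpins, Serpinf1 stood at 0.01 and Serpina3n at -0.20, the lowest paralogue (1360 and 1311 in WT, 1168 and 1151 in RKO). In the prostaglandin D2 list, which holds the enzymes before and beside Ptgds and the receptors after it, 0 of 10 passed (0 at an unadjusted p under 0.05), and the other synthase, Hpgds, differed by -0.12. Of 7 tested complement and contact genes C4b, a complement protein cleaved by the protease that C1 inhibitor blocks, rose from 449 and 416 to 552 and 601 (log2 difference 0.41, SE 0.0652, adjusted p = 0.00866), against the direction of Serping1. Without RKO replicate 2 C4b was not called (0.35). In the hyaluronan list 0 of 11 passed (4 at an unadjusted p under 0.05), the lowest being Ncan at -0.31. That 0 depended on the setting: 1 gene was called lower without RKO replicate 2 and under 6 other settings, and 2 were with an intensity trend. Of 16 BMP receptors, SMADs and ID targets Id2 rose (0.32, adjusted p = 0.0365 in limma) and Id3 stood at -0.31 without a call. The lack of a lower call in this list depended on the setting. A lower call appeared with a pseudocount of 16, median centring, an intensity trend or the mean of all probe sets. It also appeared with the replicate number as a block, with replicate numbers crossed, or without WT replicate 2. The call of Id2 was lost without WT replicate 2 (0.24), RKO replicate 1 (0.33) or RKO replicate 2 (0.31).

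The genes whose values over the 4 arrays were most like the mean profile of the 7 tested markers were Mgp, Slc6a12, Tac2, Ifitm3, Stra6 and Ccdc80, at a root mean square distance of 0.0205 to 0.0241 on the log2 scale after each gene was centred, where the median over all tested genes was 0.227. The markers themselves lay farther from their own mean, from 0.0335 for Serping1 to 0.150 for Islr, since the size of the difference varied among them. Mgp and Slc6a12 are also in the meningeal lists above, Tac2 encodes the precursor of neurokinin B, Ifitm3 an interferon-induced membrane protein and Ccdc80 a secreted matrix protein. All 6 were lower in RKO, by 0.41 to 0.50 on the log2 scale, which the way they were picked requires.

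Markers of other cell types were read beside the 8 genes. Of 7 tested oligodendrocyte genes Opalin (-0.30) fell and all 7 lay below 0 (median -0.09). Both RKO arrays lay below both WT arrays for all 7, beside 24.6% of all tested genes. The summed intensity of the list was 30770.2 to 31769 in WT and 29127 to 29271 in RKO. That list moved in the direction of Ptgds, and its part in that difference was not tested. The choroid plexus, the other source of Ptgds, had a summed marker intensity of 8964 to 9113 in WT and 9439.6 to 9482 in RKO. Most of this sum was Ttr (6973 and 6634 in WT, 7420.5 and 7330 in RKO). Of its 7 tested genes 6 lay above 0, 0 were called higher, and Kcnj13 fell (-0.37). Both RKO arrays lay above both WT arrays for 2 of the 7 and below them for 1. Pericyte and smooth muscle genes summed to 3793 to 3795 in WT and 3269 to 3486 in RKO, with 7 of 8 below 0 and 1 called, Acta2 of smooth muscle (-0.47, SE 0.0769, adjusted p = 0.0109). Its call was lost without RKO replicate 1 (-0.34). Of 7 astrocyte genes Gfap (-0.51) and Aldh1l1 (-0.31) fell, and the sums overlapped (19070.4 to 19088 in WT, 18769.9 to 19131 in RKO). Both RKO arrays lay below both WT arrays for 4 of the 7 and above them for 3. The highest of these was Gja1 at 0.22, not called (2637 and 2643 in WT, 3063 and 3083 in RKO). Opalin lost its call without WT replicate 1 (-0.22), RKO replicate 1 (-0.29) or RKO replicate 2 (-0.32), Kcnj13 without WT replicate 2 (-0.31), RKO replicate 1 (-0.31) or RKO replicate 2 (-0.43), and Aldh1l1 without WT replicate 1 (-0.30) or RKO replicate 1 (-0.23). Endothelium, microglia, ependyma and blood had 0 calls in limma among 7, 4, 4 and 2 tested genes, with medians of -0.09, -0.07, 0.05 and 0.11. In these marker lists 0 genes with a probe set were at 0 on any array. Dopamine neuron markers moved the other way: 4 of 9 rose and all lay above 0, with sums of 11649 to 11999 in WT and 15407 to 15669.6 in RKO. Of these 4 calls 2 were left without RKO replicate 1 and 1 without RKO replicate 2. How far the share of meninges or the borders of the dissected tissue differed between the groups was not tested.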

How the data were processed

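The authors deposited linear normalized intensities of 35556 probe sets on 4 arrays. The authors used GCOS and RMA, per the submitters' processing notes, with versions and settings not given in the sources used here. RMA as usually run makes arrays alike in distribution, so a shift common to most genes would be removed.

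Log2 values were taken from them without a pseudocount. Probe sets annotated to 1 symbol (21789) gave 19938 genes, each by its brightest probe set, and 6351 genes with a mean under the 40th percentile were left out. The contrast of RKO against WT was fitted with limma 3.58.1 (lmFit, eBayes) under R 4.3.3, two-sided, with no covariate (residual degrees of freedom 2, prior 8.73), and Benjamini-Hochberg adjustment over 13587 genes. The script was tested on simulated data. Standard errors (SE) are the moderated ones. An exact permutation test of 2 against 2 arrays cannot go below p = 0.333. P-values rest on the spread between these arrays, moderated by that of all tested genes (prior degrees of freedom 8.73 against 2). The number of arrays limits the precision, and the number of mice behind each is not given.

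Members and lists were chosen with earlier results of these data known. Named were the 8 markers, some of their paralogues, up to 4 called genes of largest difference per list, marker genes, and the 6 genes of nearest profile. Other genes named were chosen after their values were seen. Gene positions and promoter sequences are RefSeq's.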

Additional observations from a re-analysis of the deposited data

How the results depend on the processing

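All 82 marker values under 12 other settings stayed below 0, and 1, that of Itih2 with a pseudocount of 16 (-0.69), moved by more than the SD between replicates. Most of these settings are no test of direction. The filters, an intensity trend and a block for replicate number leave every difference as it is, for the markers and for other genes. Each marker has 1 probe set, so the mean of probe sets changes nothing. Leaving out 1 array cannot reverse groups that do not overlap. Ranbp3l entered only the fit with no filter. The median of the tested markers (-0.37) was -0.43 with no filter and ran from -0.31 to -0.43 when 1 array was left out. The 218 genes called became 31 with no filter, 455 with median centring, 499 with an intensity trend in eBayes, and 73 to 293 when 1 array was left out, where a lone array is assumed to vary like the others. With the replicate number as a block 259 genes were called; the block changed no marker's call. The numbers share no stated source, the deviations of same-numbered arrays correlated at r = -0.114, and the crossed pairing, chosen after seeing this, called 696 genes. Called genes of the transport list (10) became 3 with no filter, 5 of 7 with a filter at the 60th percentile, and 4 to 9 when 1 array was left out. Those of the matrix list (6) became 2 with no filter and ran from 5 to 6 when 1 array was left out. Those of the signal list (2) became 0 with no filter, 5 with median centring, 4 with an intensity trend, 5 with the crossed pairing, and ran from 0 to 3. Of 417 values of 33 other genes called with all arrays, 347 kept their call, 70 lost it and 0 reversed. Genes not called were followed by their lists' counts. The block added 1 lower call each in the hyaluronan, BMP, matrix and signal lists. The matrix list had 7 lower calls with the block, median centring, an intensity trend or the crossed pairing. An intensity trend added 1 higher call in the endothelium, choroid plexus, astrocyte and matrix lists. The paralogues had 1 lower with the filter at the 60th percentile, an intensity trend or the crossed pairing. Aebp1 lost its call with quantile normalization (-0.28). The cause of these moves was not tested, except that no filter tests more genes and leaving out an array uses fewer. Signal over background limits Foxc1, Foxc2, Itih2 and Ranbp3l.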
